A study of Mus musculus with 217 samples.

Results

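Described here are 10 genes whose products belong to the acute-phase response and whose transcripts rose on the ribosomes of endothelial cells (ECs) after lipopolysaccharide (LPS): Lcn2, Saa3, Saa1, Saa2, Hp, Lrg1, Steap4, Serpina3n, Serpina3g and Ptx3. They are 10 of 52550 gene rows in the count tables, and they were picked by name for their rise after LPS. Their changes from 0 hr are therefore given as a description with no test. For the members, tests are given only for what that choice did not use, namely the levels of the tissues at 0 hr, the difference of the response between tissues, and the difference between times after LPS. Lists of other genes were tested against 0 hr. These lists too were chosen with earlier results of these data known.

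The mice were RiboTagEC animals (Cdh5CreERT2/+; Rpl22HA/+), in which tamoxifen, 5 mg by gavage on 4 occasions, leads to an HA tag on the ribosomal protein Rpl22 in cells that have expressed the Cdh5-driven recombinase. Every group carried this genotype and this tamoxifen course, the 0 hr controls included. LPS, the outer membrane lipid of Gram-negative bacteria, was given intraperitoneally at 10 mg/kg, and brain, lung and heart were taken at 6, 24, 48, 72 and 168 hr, with 0 hr as the control, for which mice were given PBS per the study's methods. RNA that came down with an anti-HA antibody was sequenced, so the values stand for ribosome-bound transcripts and not for protein. The 217 sequencing runs make 98 libraries. Of these, 18 had only 1.73% to 2.75% of their reads on genes and were left out, and 80 were analysed: 28 of brain, 24 of lung and 28 of heart, with 4 to 6 libraries per group except in lung at 24 hr, which has 2. Levels are counts per 1000000 counts on genes (CPM) after scaling of library sizes.

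In the acute-phase response, cytokines such as interleukin-6, interleukin-1 and tumour necrosis factor drive cells, hepatocytes above all, to make and secrete a set of plasma proteins through the transcription factors STAT3, C/EBP and NF-kB. The proteins bind microbes, iron, haemoglobin or proteases. ECs line the vessel wall, carry receptors for LPS and for these cytokines, and face the blood into which such proteins are released.

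The members differ in what their products do. Lcn2 (chr2:32384633-32388252) encodes lipocalin 2, which binds bacterial siderophores and so withholds iron, and Steap4 (chr5:7960457-7982213) encodes a membrane metalloreductase for iron and copper. Hp (chr8:109575128-109579172) encodes haptoglobin, the plasma protein that binds free haemoglobin. Saa1 (chr7:46740497-46742980) and Saa2 (chr7:46751790-46754313) encode the serum amyloid A proteins made mainly in liver, and their neighbour Saa3 (chr7:46711998-46715700) one made mostly outside it. Lrg1 (chr17:56119678-56122001) encodes a secreted leucine-rich glycoprotein that modulates TGF-beta signalling in ECs. Serpina3n (chr12:104406729-104414329) and Serpina3g (chr12:104236245-104241939) encode serpins, the first a secreted inhibitor of serine proteases and the second an intracellular inhibitor of cathepsins. Ptx3 (chr3:66219910-66225805) encodes pentraxin 3, a soluble pattern recognition molecule of the innate immune system. Positions are on mm10. Parts of some transcripts are found in other genes too, so their counts are less certain: 31.5% of the 50-base words of Saa1, 30.0% of those of Saa2, 15.5% of those of Serpina3g, 6.90% of those of Serpina3n and 4.15% of those of Saa3 occur in another gene, and 0 of those of the other 5 members.

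The members rose together, so their promoters were searched for the sites of the 3 factor families named above. The window was 250 bases before to 50 after the RefSeq start (GRCm38.p6), and 9 members have an entry, all but Hp. The letters searched, on both strands, were GGGA and CC with 4 bases of any kind between them for NF-kB, TTGCNNAA for C/EBP and TTCNNNGAA for STAT. Of the 9 promoters, 6 hold the C/EBP letters, 3 the NF-kB letters and 2 the STAT letters, and Lrg1 holds none of them. Among all 32817 promoters of the table the shares are 10.8%, 20.7% and 8.29%. A match is a description of these letters in this window only. The 5 promoters shown belong to the genes on which the results below turn, and capitals mark the matches. Steap4 at chr5:7960222-7960521 (plus strand) is the one with all 3 motifs, with 2 matches to the NF-kB letters. Ptx3 at chr3:66219637-66219936 (plus strand) holds an NF-kB and a C/EBP match, Lcn2 at chr2:32387690-32387989 (minus strand) and Saa3 at chr7:46715627-46715926 (minus strand) a C/EBP match each, and Serpina3g at chr12:104235897-104236196 (plus strand) a STAT match.
Lcn2: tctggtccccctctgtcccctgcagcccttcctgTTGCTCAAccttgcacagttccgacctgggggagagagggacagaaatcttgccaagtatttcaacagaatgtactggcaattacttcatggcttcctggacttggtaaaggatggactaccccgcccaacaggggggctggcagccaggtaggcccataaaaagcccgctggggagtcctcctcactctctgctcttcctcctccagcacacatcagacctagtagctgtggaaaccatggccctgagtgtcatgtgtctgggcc
Steap4: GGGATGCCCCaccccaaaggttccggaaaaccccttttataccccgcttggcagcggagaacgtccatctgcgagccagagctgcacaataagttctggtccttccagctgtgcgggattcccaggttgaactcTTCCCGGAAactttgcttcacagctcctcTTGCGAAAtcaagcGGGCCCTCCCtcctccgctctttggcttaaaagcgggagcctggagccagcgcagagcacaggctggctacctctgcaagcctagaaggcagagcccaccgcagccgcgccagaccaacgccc
Saa3: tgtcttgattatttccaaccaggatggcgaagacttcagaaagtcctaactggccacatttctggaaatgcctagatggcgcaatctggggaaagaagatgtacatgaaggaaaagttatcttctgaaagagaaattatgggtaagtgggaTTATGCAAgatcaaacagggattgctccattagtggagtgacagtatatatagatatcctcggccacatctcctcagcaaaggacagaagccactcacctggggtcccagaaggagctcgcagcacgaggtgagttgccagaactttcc
Serpina3g: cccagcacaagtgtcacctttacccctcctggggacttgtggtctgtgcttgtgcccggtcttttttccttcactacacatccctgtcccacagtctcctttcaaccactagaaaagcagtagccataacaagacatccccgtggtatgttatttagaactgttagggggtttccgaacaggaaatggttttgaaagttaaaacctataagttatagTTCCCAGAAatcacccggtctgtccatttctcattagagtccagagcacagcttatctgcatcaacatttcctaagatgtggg
Ptx3: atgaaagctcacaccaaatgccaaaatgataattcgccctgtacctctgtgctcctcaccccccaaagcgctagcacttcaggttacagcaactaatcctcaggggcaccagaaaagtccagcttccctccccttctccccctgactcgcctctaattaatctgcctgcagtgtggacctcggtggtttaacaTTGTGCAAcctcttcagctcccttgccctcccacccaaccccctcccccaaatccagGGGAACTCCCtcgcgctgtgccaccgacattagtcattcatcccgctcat

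Some libraries stood apart and bear on every result at 6 and 48 hr. At 6 hr the libraries of series 1 (a group of runs that share a naming pattern) are brain replicate 6, heart replicate 5 and lung replicate 4. They were taken as 1 mouse because their run names hold no label that tells animals apart. Below they are called the mouse of series 1 or the mouse that stood apart, though a shared animal is only assumed. The size of a library's change from 0 hr over the other responding genes, relative to the change in the other libraries of its group, was -0.02 in brain replicate 6 and -0.02 in heart replicate 5, against 0.95 to 1.49 in the other brain and heart libraries at that time. In lung this measure ran from 0.06 in replicate 3 to 1.47 in replicate 4 at 6 hr, so it did not set replicate 4 apart as low. Lung replicate 4 holds only 284457 counts on genes, with 1 count of Cdh5, 5 of Lcn2, 4 of Saa3, 3 of Hp, 2 of Ptx3 and 0 of the other 6 members. After scaling of library sizes its 5 counts of Lcn2 stand at 144 CPM. Heart replicate 1 at 72 hr stood apart in the same way (0.01). At 48 hr the libraries of series 2 (replicates 1 and 2) were low, at 0.18 to 0.40 in brain and heart against 0.59 to 1.49 for the others. The other 79 libraries held 2678119 to 43417945 counts on genes. For the members, counts and tests that rest on the series 1 libraries at 6 hr are given with and without them, as is the heart count at 72 hr. The series 2 libraries at 48 hr were only left out 1 at a time. Results at 48 hr are therefore not given without both of them.

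EC markers were present in every group: 20 EC genes summed to 3689 to 6850 CPM in brain at 0 hr, to 16066 to 26478 CPM in lung and to 15696 to 18172 CPM in heart. At 6 hr these sums were 2314 to 4468 CPM, 3321 to 17853 CPM and 7388 to 17021 CPM. Other cells were also represented. Neuron markers (10 genes) summed to 1609 to 7096 CPM in brain at 0 hr and epithelial markers (12 genes) to 7487 to 14528 CPM in lung. In such bulk samples fewer cells of a type and less RNA per cell cannot be told apart.

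At 0 hr the members were low in brain and heart, and Hp, Saa3, Lrg1 and Ptx3 were higher in lung. Hp was at 67.0, 99.3, 116 and 189 CPM in the 4 lung libraries, against 0.18 to 1.38 CPM in brain and 0.47 to 1.80 CPM in heart. Saa3 was at 2.89, 16.0, 46.7 and 97.1 CPM in lung, at 0.08 to 1.62 CPM in brain and at 0.16 to 0.37 CPM in heart. For both genes every lung library was above every library of the other tissues. Lrg1 was at 128 to 379 CPM in lung, 6.13 to 52.1 CPM in brain and 20.6 to 57.8 CPM in heart, again without overlap. Ptx3 was at 2.31, 8.52, 10.4 and 23.8 CPM in lung, 0.08 to 0.79 CPM in brain and 0.53 to 2.24 CPM in heart, so that the lowest lung library lay just above the highest of heart.

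These baseline differences were tested against the spread between libraries. In brain against lung, edgeR's quasi-likelihood test with Benjamini-Hochberg adjustment called 5 of 10 members, all lower in brain, where 55.6% of all genes tested were called. The log2 differences were -7.47 ± 0.87 (SE) for Hp, -5.58 ± 1.22 for Saa3, -4.48 ± 1.08 for Ptx3, -3.08 ± 0.59 for Lrg1 and -2.49 ± 0.66 for Serpina3g. In lung against heart 5 of 10 were called, all higher in lung (49.2% of all genes): Saa3 by 7.23 ± 1.34, Hp by 6.92 ± 0.85, Lrg1 by 2.87 ± 0.58, Ptx3 by 2.62 ± 0.98 and Saa1. The Ptx3 call against heart was lost within series 2 (1.85, edgeR adjusted p = 0.0793), with the replicate block (edgeR adjusted p = 0.0527) and with all 98 libraries (edgeR adjusted p = 0.0914). In brain against heart 3 of 10 were called (45.7% of all genes), Saa1 and Saa2 higher in brain and Serpina3g lower, by -1.499 ± 0.62 (adjusted p = 0.0403). The Serpina3g call was lost with DESeq2 (adjusted p = 0.0739), with RLE scaling, and in edgeR within series 2 (adjusted p = 0.0699), without the series covariate (adjusted p = 0.0704) and without series 4 (adjusted p = 0.0781). The calls of Saa1 and Saa2 were also lost without series 4 (edgeR adjusted p = 0.0674 and 0.0642), and that of Saa2 with a minimum of 1000000 counts per library. In brain against heart Ptx3 was also called with the mouse as a block, where 10130 of 22007 genes were. The same held without the series 1 libraries at 6 hr, where 10846 of 22125 genes were called. The count of members called was near or below the share of all genes in each pair of tissues. The median difference of all genes was 0.50 in brain against lung with the scaling used and 0.82 with another (RLE), and 0.28 and 0.56 in brain against heart.

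Saa1 and Saa2 rested on few counts at 0 hr. Heart held 0 counts of either gene in 5 libraries, and lung 0 counts of Saa2 in 4. Against the level that 3 counts over the group would give, Saa1 was at least 7.82-fold higher in brain than in heart (23 counts) and Saa2 at least 9.51-fold higher (28 counts, 20 of them in brain replicate 5, and 3.69-fold without that library). The bound for Saa2 in brain against lung was 5.52-fold, and 2.15-fold without the same library. Saa1 was at least 12.1-fold higher in lung than in heart, but 18 of its 21 counts were in lung replicate 2, and without that library the bound was 2.25-fold and the call was lost (adjusted p = 0.298). These bounds cover counting error only.

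Lcn2, Steap4, Serpina3n, Saa1 and Saa2 were not called in brain against lung, although DESeq2 called Serpina3n (adjusted p = 0.0328) and Saa2 (adjusted p = 0.0165). Lcn2 was at 5.41, 16.9, 20.7, 22.2 and 37.1 CPM in brain, 7.86, 16.4, 48.4 and 73.9 CPM in lung and 7.52, 14.0, 15.4, 17.2 and 19.7 CPM in heart. The 3 tissues overlap, and the interval (95%) of the brain-to-lung difference ran from -2.37 to 0.80 on the log2 scale. Per kilobase of transcript, Lrg1 was the most abundant member in each tissue at 0 hr, with a median of 18.8 CPM per kilobase in brain, 160 in lung and 21.0 in heart. Lcn2 came next in brain (7.90) and heart (5.87), while Hp came second in lung (67.0).

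**Figure D1:**
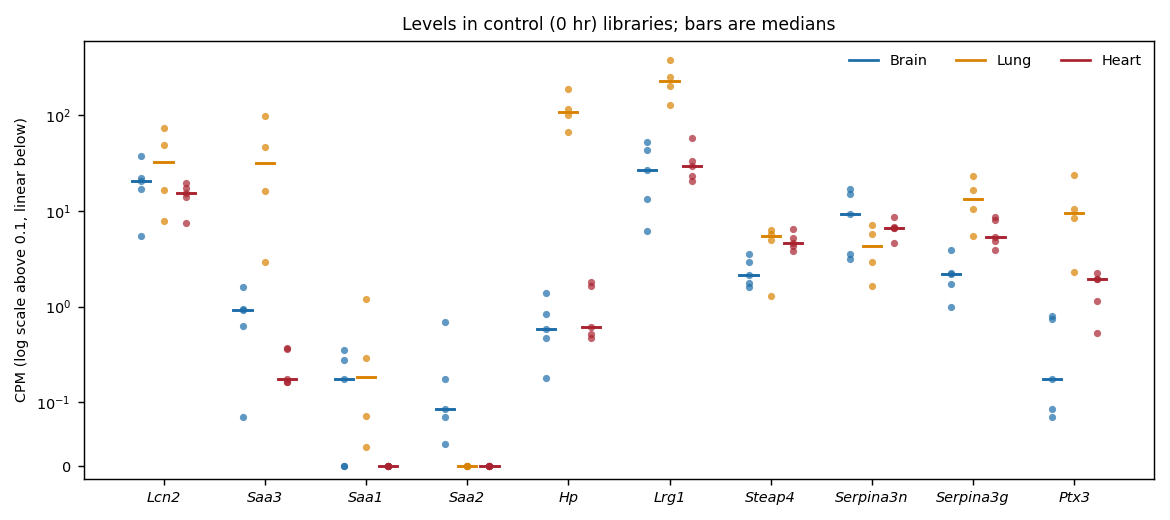
Levels of the 10 members in the libraries taken at 0 hr, in CPM (log scale above 0.1, linear below); each point is a library and each bar the median of a tissue. The lung points of Hp, Saa3 and Lrg1 lie above all brain and heart points, those of Lcn2 overlap between tissues, and Saa1 and Saa2 are at 0 in heart.

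After LPS most members were far above their 0 hr level in brain and heart and less so in lung. Saa1 and Saa2 were exceptions, with log2 changes at 24 hr of 7.04 and 6.71 in lung and 4.11 and 3.97 in heart. Both heart changes, and that of Saa2 in lung, start from 0 counts and depend on the prior count. The median level was highest at 24 hr for 8 of 10 members in brain, 4 in heart and 2 in lung, and at 6 hr for 1, 5 and 6. At 168 hr each member overlapped its 0 hr libraries in each tissue. At 24 hr all 10 members were above every 0 hr library in each brain library (10.2% of all genes were) and in each heart library (18.6%), and 9 were in both lung libraries (12.5%). These shares describe genes that were chosen for this rise, and nothing is read from them. Over the 10 members the median log2 change at 24 hr came to 6.97 (brain), 2.77 (lung) and 4.64 (heart), against -0.16, 0 and -0.02 for all genes.

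Lcn2 reached the highest level of the members in brain and heart. In brain it was at 4844, 5476, 7645 and 8542 CPM at 6 hr in the libraries of series 2 and at 289 CPM in replicate 6, and at 10823, 18299, 24372 and 28206 CPM at 24 hr. In heart it was at 3062, 4872, 5828 and 6792 CPM at 6 hr with 46.7 CPM in replicate 5, and at 8451, 11981, 19588 and 22013 CPM at 24 hr. Each of these values is above every 0 hr library of its tissue, those of the mouse that stood apart included. Lcn2 then made up 1.22% to 2.96% of all counts on genes in brain at 24 hr and 0.848% to 1.93% in heart, where it ranked 1 to 3 among all genes. Lung stayed lower, at 144, 728, 1985 and 2500 CPM at 6 hr and 1316 and 2880 CPM at 24 hr, or 0.118% and 0.257% of counts on genes. The 144 CPM of replicate 4 at 6 hr rests on 5 counts and on the scaling of library sizes. Its share, 0.00176% of counts on genes, lies within the 0.000608% to 0.00524% of lung at 0 hr. In series 2 the shares at 6 hr were 0.0497%, 0.0577% and 0.156%. By 168 hr Lcn2 was at 22.0 to 73.5 CPM in brain, 9.83 to 22.6 CPM in lung and 10.8 to 26.7 CPM in heart. All 3 tissues overlapped 0 hr, with 3 of 4 brain libraries above all of the 0 hr libraries.

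**Figure D2:**
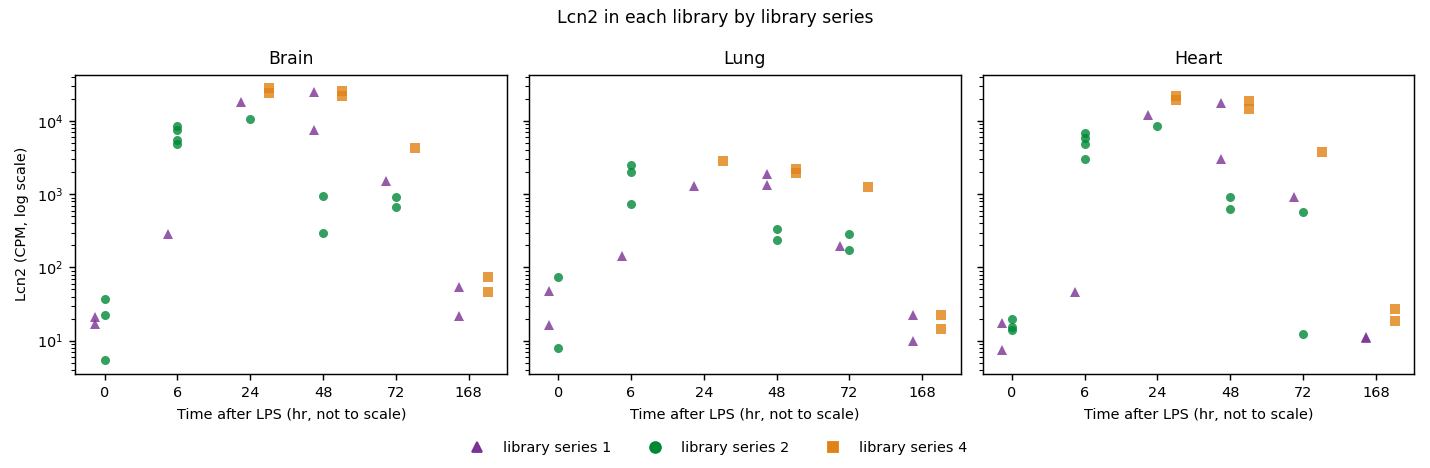
Lcn2 in each library (CPM, log scale) against time after LPS (hr, positions not to scale) in brain, lung and heart; symbols and colours mark the library series. At 48 hr the 2 libraries of series 2 lie below the other libraries in each tissue, at 299 and 955 CPM in brain, and the library of series 1 at 6 hr lies below those of series 2.

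The other genes of metal and haem handling had their highest levels in different tissues. Steap4 was at 1.62 to 3.55 CPM in brain at 0 hr and at 268, 297, 397 and 403 CPM at 6 hr (4.24 CPM in replicate 6), and at 150.2, 656, 843 and 848 CPM at 24 hr. In heart it went from 3.80 to 6.48 CPM to 205, 223, 257 and 279 CPM at 6 hr (5.61 CPM in replicate 5) and was down to 53.3, 81.9, 105 and 128 CPM at 24 hr. Brain thus was at its highest median at 24 hr and heart at 6 hr. In lung Steap4 was at 18.9, 55.3 and 446 CPM at 6 hr in the libraries of series 2 and at 17.2 and 37.1 CPM at 24 hr, from 1.28 to 6.33 CPM. Hp was at 10.2 to 19.3 CPM in brain and 13.5 to 43.7 CPM in heart at 24 hr, and at 232 and 666 CPM in lung. The highest brain and heart libraries at 24 hr therefore remained below the lowest 0 hr lung library (67.0 CPM), while at 48 hr heart reached 86.0 CPM.

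The serum amyloid A genes started near 0 in brain and heart. Saa3 was at 1328, 1419, 1500 and 1523 CPM in brain at 6 hr in series 2, with 1.08 CPM in replicate 6, and at 3097, 3714, 6666 and 9724 CPM at 24 hr. In heart it was at 764, 884, 902 and 1170 CPM at 6 hr, with 0.96 CPM in replicate 5, and at 268, 386, 868 and 1052 CPM at 24 hr. Lung held the highest single values, 4754, 6832 and 19915 CPM at 6 hr in series 2 and 5029 and 17093 CPM at 24 hr. Saa1 followed in brain, with 124, 132, 215 and 372 CPM at 24 hr, and lung, with 41.2 and 44.4 CPM, but stayed at 0.97 to 3.13 CPM in heart. Saa2 was at 42.7 to 149 CPM in brain, 7.83 and 13.1 CPM in lung and 0.43 to 3.30 CPM in heart at 24 hr. All of these except Saa3 in brain replicate 6 are above the 0 hr libraries of the same tissue, and the share of sequence that Saa1 and Saa2 have in common limits how well they are told apart.

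Lrg1 had the smallest log2 change of the members at 24 hr in lung and heart. It was at 343, 446, 531 and 607 CPM in brain at 24 hr, 251, 359, 367 and 508 CPM in heart and 416 and 513 CPM in lung. The 3 tissues were thus close in level at 24 hr, after a start that differed, and the log2 changes were 4.43, 3.55 and 1.05. At 6 hr in lung Lrg1 was at 274, 527 and 553 CPM in series 2, of which the lowest lies within the range of 0 hr, and replicate 4 had 0 counts.

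The serpins split by tissue. Serpina3g was at 3.91 to 8.66 CPM in heart at 0 hr, at 310.5, 630.3, 678 and 1046 CPM at 6 hr (5.93 CPM in replicate 5) and at 269.7, 382, 939 and 1344 CPM at 24 hr. In brain it reached 12.9, 21.5, 24.3 and 38.6 CPM at 6 hr in series 2 and 14.7, 27.0, 37.8 and 47.9 CPM at 24 hr, from 0.99 to 3.86 CPM. In lung it reached 81.7, 145 and 166 CPM at 6 hr in series 2 and 43.5 and 97.2 CPM at 24 hr, from 5.48 to 23.1 CPM. Heart thus lay above both other tissues at 6 hr (without the mouse that stood apart) and at 24 hr in every library. Serpina3n behaved otherwise: it was at 317, 495, 505 and 612 CPM in brain, 123, 300.5, 469 and 618 CPM in heart and 19.5 and 41.4 CPM in lung at 24 hr. In heart Serpina3n was only at 17.9, 33.2, 66.8 and 90.9 CPM at 6 hr in series 2, and replicate 5, with 58.7 CPM, lay among them. All 5 are above the 0 hr libraries, at 4.66 to 8.64 CPM.

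Ptx3 had its highest median at 6 hr in each tissue. It was at 5.60, 70.3, 99.0 and 321 CPM in brain at 6 hr in series 2, 14.0, 14.1, 36.8 and 71.7 CPM at 24 hr, and 0.76 to 32.6 CPM (median 3.52) at 48 hr. In heart the values were 162, 191, 335 and 386 CPM at 6 hr in series 2, 12.3, 36.4, 44.0 and 104 CPM at 24 hr, and 2.30 to 35.7 CPM (median 5.74) at 48 hr. In heart each of the 6 hr libraries of series 2 lay above all 48 hr libraries, while in brain the lowest of them lay among these. In lung Ptx3 started higher and was at 40.3, 57.8, 68.4 and 89.6 CPM at 6 hr and 14.7 and 107 CPM at 24 hr. At 168 hr the 4 lung libraries were at 12.5, 19.0, 24.1 and 95.6 CPM, 2 of them above all 0 hr libraries.

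**Figure D3:**
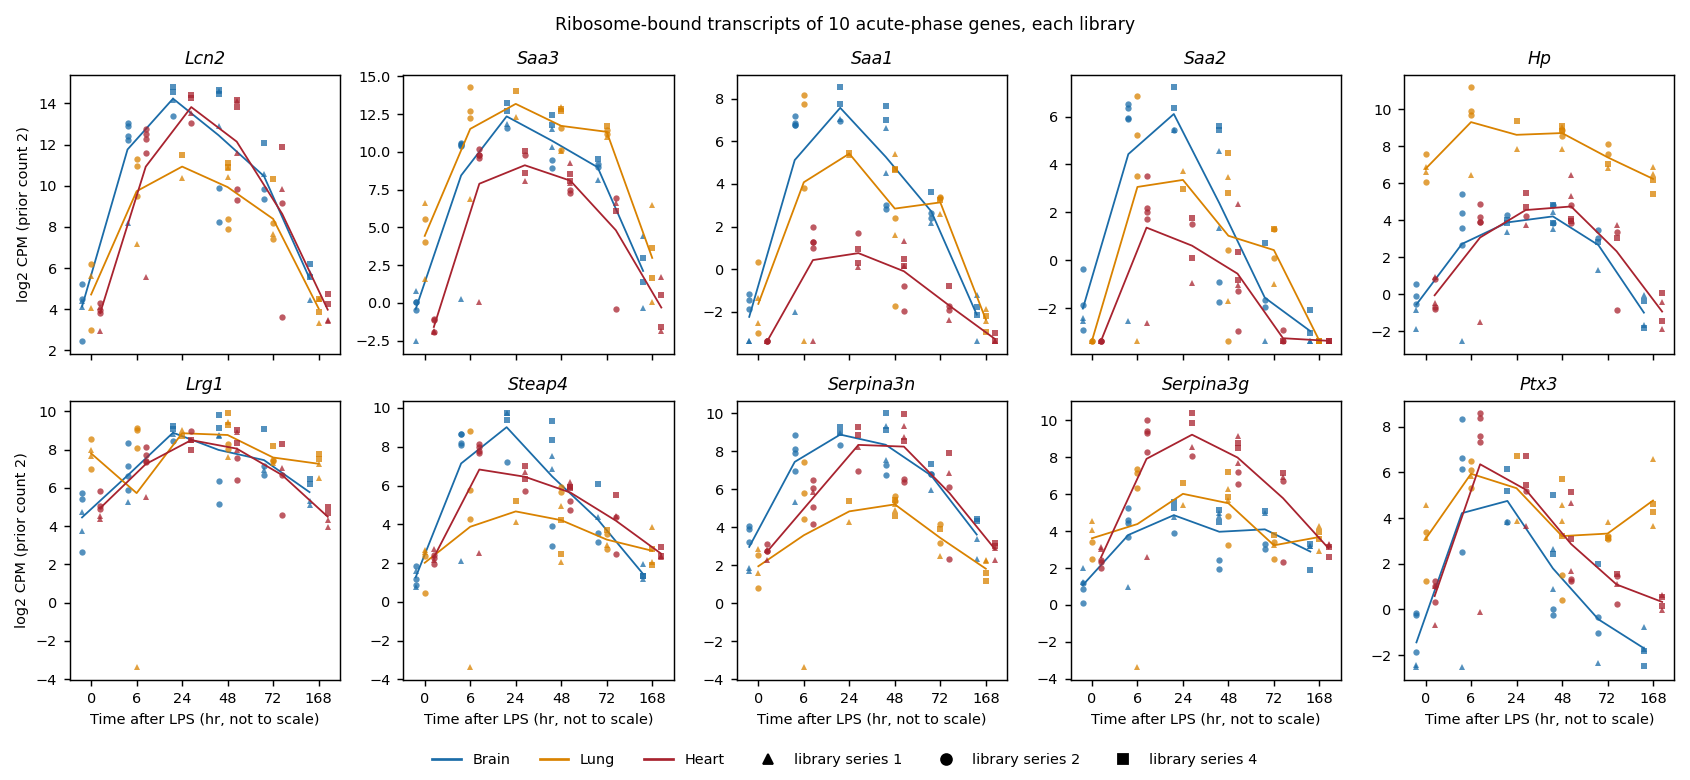
Levels of the 10 members in every library (log2 CPM with a prior count of 2) against time after LPS (hr, positions not to scale); lines join the means of all libraries of a tissue, and symbols mark the library series. Most members peak at 6 or 24 hr and are near the 0 hr level at 168 hr, Saa1 stays low in heart, Hp starts high in lung, and Serpina3g is highest in heart.

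The counts of members above every 0 hr library show how far single libraries decide the picture. At 6 hr, with all libraries, 3 members in brain (1.11% of all genes), 3 in lung (0.938%) and 4 in heart (3.36%) were above every 0 hr library. Without the mouse of series 1 these counts were 10 (7.63%), 9 (4.09%) and 10 (23.2%). Of the 3 in lung with all libraries, Lcn2 in replicate 4 was above by scaled level but not by its share of counts. At 48 hr the counts were 6 in brain (2.37%), 4 in lung (1.6%) and 10 in heart (4.04%), and at 72 hr 8 (4.19%), 5 (3.88%) and 2 (2.15%), with 8 in heart (8.86%) without replicate 1. At 168 hr the count was 0 in each tissue, where 1.23%, 3.41% and 2.15% of all genes were above. Within series 1 alone, with 2 libraries against 2, 5 members in brain (Lcn2, Lrg1, Serpina3n, Serpina3g and Ptx3) and 1 in heart were above the 0 hr libraries of that series. Within series 2 alone, 10 members in brain, 9 in lung and 10 in heart were above all 0 hr libraries of that series at 6 hr, and 7, 5 and 10 at 48 hr. Within series 1, 10, 9 and 10 were above at 24 hr and 10, 7 and 10 at 48 hr. In series 1 that is 1 library against 2 at 24 hr and 2 against 2 at 48 hr. In series 2 it is 3 or 4 against 2 or 3 at 6 hr, and 2 against 2 or 3 at 48 hr. So few libraries can lie above by order alone. The share of all genes is not given for the counts within a series, and nothing is read from them. Series 4 has no 0 hr library. At 48 hr the series 2 libraries were below all others for 9 of 10 members in brain, 9 in heart and 3 in lung.

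Whether the tissues differed in their response was tested as the difference of the changes from 0 hr, in 1 fit over all 3 tissues with the library series as a covariate. At 6 hr edgeR called 1 of 10 members in brain against lung (13.3% of all genes), 2 in lung against heart (18.1%) and 0 in brain against heart (0.636%). Ptx3 rose more in brain than in lung, by 5.13 ± 1.45 on the log2 scale (SE, adjusted p = 0.0129), and less in lung than in heart, by -4.39 ± 1.40 (adjusted p = 0.0213). Serpina3g rose less in lung than in heart, by -3.28 ± 0.92 (adjusted p = 0.00846). Its difference between brain and heart was as large, -3.26 ± 0.86, but just missed the threshold (edgeR adjusted p = 0.0502), and it passed with DESeq2 (adjusted p = 0.00848) and without the mouse of series 1 (edgeR adjusted p = 0.000789). In brain against heart it was the 1 member with an unadjusted p under 0.05 at 6 hr. Within series 2 alone these 3 called differences were 4.40, -3.89 and -3.10, each past the threshold. The Ptx3 difference between brain and lung was lost without brain 6 hr replicate 2 (edgeR adjusted p = 0.0508), and that between lung and heart with all 98 libraries (edgeR adjusted p = 0.0588). With the mouse as a block, Lcn2 (2.85, edgeR adjusted p = 0.0397) was also called in brain against lung, Saa3 (-3.99, edgeR adjusted p = 0.00907) in lung against heart and Serpina3g (-2.73, edgeR adjusted p = 0.0105) in brain against heart. In these pairs that block called 2077, 3576 and 442 of 22007 genes. Without the mouse of series 1, edgeR also called Lcn2 in brain against lung and in lung against heart, where 3031 and 4365 of 22125 genes were called.

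At 24 hr Steap4 rose more in brain than in lung, by 5.42 ± 1.47 (edgeR adjusted p = 0.0184), the 1 member of 10 called in that pair (3.85% of all genes). Serpina3g again rose less in lung than in heart, by -4.48 ± 1.14 (edgeR adjusted p = 0.0208), also 1 of 10 (1.67%). No member was called in brain against heart (0.327%), where edgeR gave 2 members an unadjusted p under 0.05 and DESeq2 called 1, Steap4 (256 of 22007 genes). Without the mouse of series 1, both Steap4 (3.97, edgeR adjusted p = 0.0199) and Serpina3g (-2.64, edgeR adjusted p = 0.0253) passed in that pair, as did 170 of 22125 genes. Lung has only 2 libraries at 24 hr: both calls were lost without lung replicate 1 or without lung replicate 3, and without library series 4, and the Serpina3g call also without the series covariate (edgeR adjusted p = 0.0618). The mouse block added Lcn2 (4.18, edgeR adjusted p = 0.0305), Lrg1 (2.85, edgeR adjusted p = 0.0456) and Saa3 (4.74, edgeR adjusted p = 0.0261) in brain against lung, and Serpina3g (-2.86, edgeR adjusted p = 0.0132) in brain against heart. In these pairs that block called 471 and 104 of 22007 genes. Leaving out the mouse of series 1 added Lcn2 and Lrg1 in brain against lung and Lcn2 in lung against heart (edgeR). Of all genes, 929 and 506 of 22125 were called in these pairs then.

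At 48 hr Lcn2 (4.00 ± 1.10, edgeR adjusted p = 0.0240) and Lrg1 (2.67 ± 0.75, edgeR adjusted p = 0.0274) rose more in brain than in lung, 2 of 10 members (3.54% of all genes). Serpina3g rose less in lung than in heart, by -3.37 ± 0.84 (edgeR adjusted p = 0.0239), 1 of 10 (1.13%). In brain against heart 0 of 10 were called (0.463%), with 2 at an unadjusted p under 0.05 and 0 with DESeq2. Within series 2 the differences were 2.04 for Lcn2 and 0.61 for Lrg1 (edgeR adjusted p = 0.451 and 0.932) and -3.41 for Serpina3g (edgeR adjusted p = 0.0765), and none of the 3 was called without series 4 or without lung 0 hr replicate 2. The Lcn2 and Lrg1 calls were also lost without the series covariate (edgeR adjusted p = 0.0512 and 0.0552) and with all 98 libraries (edgeR adjusted p = 0.0557 and 0.146). Without the mouse of series 1, 5 members were called in brain against lung (Steap4, Lcn2, Hp, Lrg1 and Saa3), 3 in lung against heart (Lcn2, Hp and Serpina3g) and 1 in brain against heart (Serpina3g, -2.23, edgeR adjusted p = 0.0473), while DESeq2 called 5, 4 and 0. Of all genes, 791, 284 and 146 of 22125 were called without that mouse, and 879, 717 and 288 of 22007 with DESeq2. The mouse block added Saa3 (edgeR adjusted p = 0.00239) in brain against lung, Lcn2, Hp and Saa3 (edgeR adjusted p = 0.0385, 0.0406 and 0.0157) in lung against heart, and Serpina3g (-2.57, edgeR adjusted p = 0.0210) in brain against heart. In these pairs that block called 645, 513 and 92 of 22007 genes.

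For Lcn2 the difference of the response between brain and heart was -0.08 at 6 hr with an interval (95%) of -2.19 to 2.04, -0.03 at 24 hr with one of -2.26 to 2.21 and 0.10 at 48 hr with one of -1.93 to 2.13, all on the log2 scale. For Steap4 the brain-to-heart difference was 1.495 at 6 hr (-0.55 to 3.54), 3.72 at 24 hr (1.495 to 5.94) and 2.76 at 48 hr (0.75 to 4.77), which did not pass after adjustment (edgeR adjusted p = 0.617, 0.167 and 0.362).

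**Figure D4:**
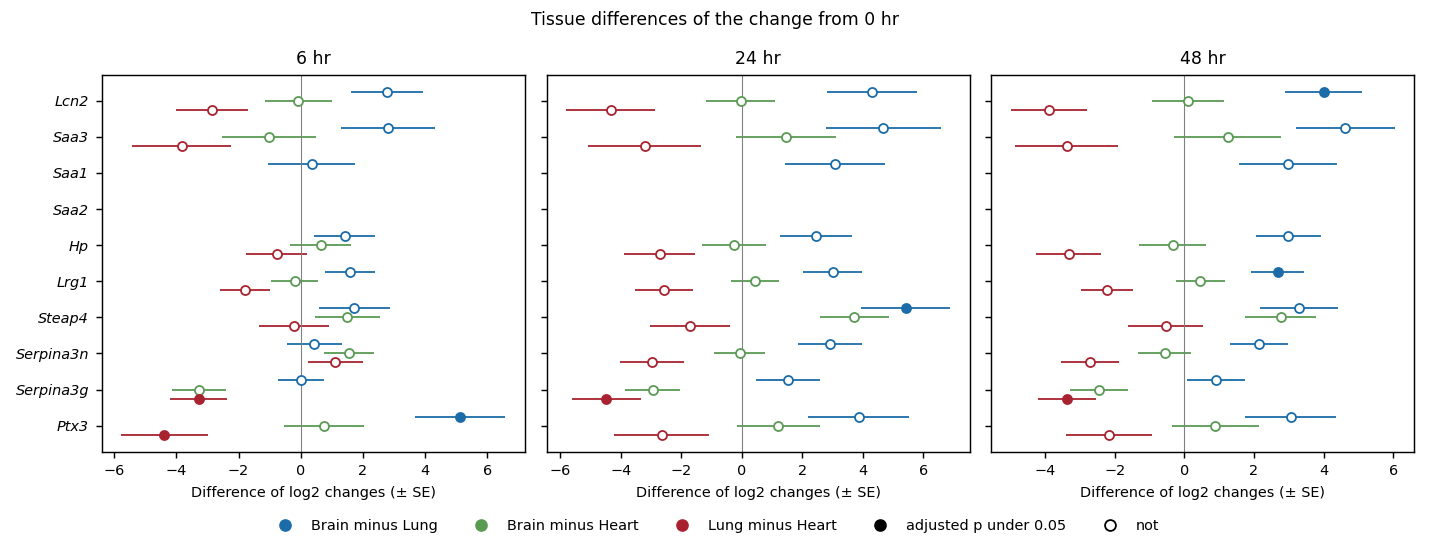
Difference between tissues of the log2 change from 0 hr for each member at 6, 24 and 48 hr (bars are ± SE); filled points passed an adjusted p of 0.05. Saa2, and Saa1 in comparisons with heart, are left out because a tissue has 0 counts at 0 hr. The 9 differences of brain minus lung lie to the right of 0 at each time. Those of lung minus heart that are shown lie to the left, except 1 at 6 hr, while few of them passed. Saa1 and Saa2, not shown for lung minus heart, had larger log2 changes at 24 hr in lung (7.04 and 6.71) than in heart (4.11 and 3.97).

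Times after LPS were compared within each tissue. Ptx3 was lower at 48 than at 6 hr in brain, by -4.94 ± 1.32 (edgeR adjusted p = 0.0212), the 1 member of 10 called there (8.84% of all genes). In heart 3 of 10 were called (32.5%): Ptx3 by -4.57 ± 1.05 (edgeR adjusted p = 0.00283), Steap4 by -2.32 ± 0.60 (edgeR adjusted p = 0.00617) and, in the other direction, Serpina3n by 1.81 ± 0.58 (edgeR adjusted p = 0.0209). In lung 0 of 10 were called (0.211%), with 5 at an unadjusted p under 0.05 and 4 called by DESeq2 (1238 of 17058 genes). Between 24 and 6 hr 0 members were called in brain (0.291%), lung (0.00586%) or heart (4.74%). At an unadjusted p under 0.05 there were 1, 0 and 3, and DESeq2 called 0, 0 and 2 (280 of 19234, 132 of 17058 and 1827 of 16024 genes). Without the mouse of series 1, edgeR called Steap4 (-2.19) and Ptx3 (-3.44) lower at 24 than at 6 hr in heart, where 4896 of 15990 genes were called. The Ptx3 fall from 6 to 48 hr also passed within series 2 in brain and heart, but in brain not without series 4 (edgeR adjusted p = 0.0846) or with the replicate block (edgeR adjusted p = 0.104), and the Serpina3n rise did not (0.72, edgeR adjusted p = 0.430). The counts of members called between 48 and 6 hr depended on the mouse of series 1. Without it edgeR called 5 in brain (Steap4, Ptx3, Serpina3g, Saa2 and Saa1) and 6 in heart (the same 5 genes and Serpina3n), and within series 2 it called 7 in brain and 6 in heart, Lcn2 among both. Of all genes, 1660 of 19243 (brain) and 8314 of 15990 (heart) were called without that mouse. Within series 2 the numbers were 2718 of 20306 and 7678 of 16581. The heart counts in particular are to be read against these.

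Other genes of the acute-phase response, a list of 32 that holds no member, were tested in the same libraries. This list and those that follow were chosen with earlier results of these data known. Their counts are therefore a description and no independent evidence of a rise. At 6 hr 18 of 29 tested were higher than at 0 hr in brain (edgeR, 4.21% of all genes), 13 of 29 in lung (2.56%) and 16 of 22 in heart (22.4%), with 1 lower, Vwf in heart. Of all genes, 2.23% (brain), 2.27% (lung) and 20.3% (heart) were called lower at 6 hr. At 24 hr brain had 21 higher (6.52%), lung 2 (0.363%) and heart 15 (9.07%). At 6 hr the list's median log2 change was 3.74 (brain), 4.41 (lung) and 2.49 (heart), and all genes one of 0.00, -0.42 and -0.05. In lung the count at 6 hr rested on few libraries and was 3 without lung 0 hr replicate 3.

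Among them Il1rn, the interleukin-1 receptor antagonist, went from 0 to 0.25 CPM in brain at 0 hr to a median of 21.3 CPM at 6 hr (range 0 to 46.4). Its fitted log2 change was 7.98 ± 1.14 in brain and 5.47 ± 0.95 in lung (edgeR adjusted p = 0.000169 and 0.0016). In heart it had 0 counts in all 5 libraries at 0 hr and a median of 18.0 CPM at 6 hr. Mt2, a metallothionein that binds zinc and copper, rose from 69.6 to 259 CPM in brain to a median of 4765 CPM at 6 hr, and from 1.63 to 5.42 CPM in heart to a median of 5687 CPM, with log2 changes of 4.77 ± 0.92 and 10.38 ± 1.51. Cfb, complement factor B, was called higher in each tissue at low levels, with a median of 0.42 CPM in brain, 0.13 CPM in lung and 3.33 CPM in heart at 6 hr. The ranges were 0.08 to 1.12, 0 to 20.9 and 0.51 to 4.95 CPM. In lung, where all 0 hr libraries were at 0, the call thus leans on the highest of 4 libraries. Genes whose liver product falls in the acute phase (8) showed little: 0 of 5 tested changed in brain and 0 of 3 in heart at 6 hr, and 1 of 7 in lung, Ttr, which was higher. Of all genes, 4.21% (brain), 22.4% (heart) and 2.56% (lung) were higher then, and 2.23%, 20.3% and 2.27% lower.

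Inducers and regulators of the response (30 genes) were higher at 6 hr for 23 of 29 tested in brain, 7 of 30 in lung and 23 of 29 in heart, with 1 lower in each tissue, beside 4.21%, 2.56% and 22.4% of all genes higher. At 24 hr 18, 0 and 16 were higher (6.52%, 0.363% and 9.07% of all genes). Il6 rose from at most 0.27 CPM to a median of 27.1 CPM in brain and from at most 0.23 CPM to a median of 258 CPM in heart at 6 hr (log2 changes 9.17 ± 1.51 and 10.89 ± 1.49). Nfkbiz, the NF-kB cofactor needed for Lcn2 induction, rose from 2.78 to 6.72 CPM to a median of 99.6 CPM in brain, from 4.70 to 8.70 CPM to 66.8 CPM in lung and from 2.76 to 3.68 CPM to 414 CPM in heart. Tnf was at a median of 2.12 CPM in brain, 3.68 CPM in lung and 20.4 CPM in heart.

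Binding partners and targets of the products (19 genes) had 3 of 16 tested higher at 6 hr in brain, 2 of 17 in lung and 7 of 17 in heart, and 1, 0 and 4 lower. Of all genes, 4.21% (brain), 2.56% (lung) and 22.4% (heart) were higher, and 2.23%, 2.27% and 20.3% lower. The counts here and those of the paralogs below are to be read against these shares. Selp, which encodes P-selectin, a ligand of pentraxin 3, was higher in each tissue, by 8.54 ± 1.27 in brain, 5.45 ± 1.08 in lung and 7.34 ± 1.02 in heart at 6 hr (edgeR adjusted p = 0.000203, 0.00427 and 2.27e-05). Of 20 paralogs of the members, brain had 7 of 14 tested higher at 6 hr, lung 7 of 15 and heart 8 of 11, with 1 lower. They included Serpina3f, Serpina3h and Serpina3i, which lie in the same cluster as Serpina3g and share sequence with it. The median of Serpina3f at 6 hr was 160 CPM (brain), 217 CPM (lung) and 397 CPM (heart), from at most 0.63, 8.70 and 3.07 CPM.

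Over the 18 tissue and time means, the genes whose level was most like that of Lcn2 were Cxcl1 (Pearson's r = 0.942), Csf3 (0.935) and Nfkbiz (0.924), out of 9022 genes. Those most like Serpina3n were Cp (0.923), Lcn2 (0.914) and Zc3h12a (0.907). These means share libraries and controls, and the values are a description.

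Markers of some other cells also changed after LPS. The summed level of 19 neutrophil genes (Hdc left out, which led the list in heart) was 51.8 to 216 CPM in lung at 0 hr and 28.9 to 4429 CPM (median 2819) at 6 hr, with S100a9 and S100a8 leading and 19 of 20 markers detected (Ctsg at 0). In brain the sum went from 8.08 to 66.6 CPM to 10.4 to 437 CPM, and in heart from 1.47 to 2.61 CPM to 1.72 to 68.8 CPM. In heart at 0 hr, Camp, Elane, Ly6g, Mmp8, Cd177 and Stfa2l1 were at 0. Neutrophils make Lcn2 and Hp, so the ratio of Lcn2 to S100a9 is given at 24 hr: it was 651 to 2234 in brain and 519 to 5811 in heart, but 1.89 and 1.95 in lung. Lcn2 was thus far above S100a9 in brain and heart and close to it in lung. In brain Hp was at 10.2 to 19.3 CPM at 24 hr, where the sum of the 19 neutrophil genes was 49.5 to 135 CPM. Over the libraries of a tissue, log2 Hp and the log2 sum of all 20 neutrophil genes had a Pearson's r of 0.902 in brain (28 libraries), 0.824 in lung (24) and 0.897 in heart (28), and Lcn2 one of 0.973 in heart, as a description over libraries that share their times. This sum includes Hdc, which makes up most of it in heart. There Hdc had a median of 658 CPM at 24 hr, against 26.3 CPM for the other 19 genes together. The heart values of r thus cannot be read as values for those 19 genes. The part of neutrophil transcripts in the values of the members was not tested in any tissue. Monocyte and macrophage markers (15 genes) summed to 345 to 1566 CPM in lung at 0 hr, 665 to 6214 CPM at 6 hr and 541 to 5935 CPM at 48 hr, and their part in the lung levels was not tested. Epithelial markers in lung were at 7487 to 14528 CPM at 0 hr, 722 to 30200 CPM at 6 hr and 4200 and 5494 CPM at 24 hr, and their part in the lung levels of Hp, Saa3 and Lrg1 was not tested. In brain, fibroblast markers (10 genes) went from 525 to 1594 CPM at 0 hr to 1394 to 4570 CPM at 24 hr, led by Dcn, and their part was not tested. Hepatocyte markers (12 genes) summed to 135 to 843 CPM in brain at 0 hr and 97.9 to 1013 CPM at 24 hr, led by Ttr, which the choroid plexus also makes. In lung the sum was 3.21 to 7.44 CPM at 0 hr and 2.77 to 144 CPM at 6 hr, where Ttr led, and in heart 21.3 to 87.6 CPM at 0 hr and 66.2 to 156 CPM at 48 hr, led by Ahsg. Alb was at 0 in all libraries at 0 and 6 hr in each tissue but was detected in each at 24 hr. The part of hepatocyte transcripts was not tested.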

How the data were processed

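Ribosome-bound RNA from brain, lung and heart of RiboTagEC mice was sequenced. The authors aligned reads to mm10 with STAR 2.4.2 and deposited raw counts per gene from HTSeq 0.6.1, 1 table per sequencing run; the annotation release and strand setting are not given in the sources used here. Groups were taken from the sample labels. Runs of 1 library were summed, rows that name no gene were left out of library sizes, and 18 libraries with under 3% of reads on genes were left out of the analysis; in those kept, 3.405% to 70.0% of reads fell on genes and the rest on rows that name no gene. Library series and mouse were read from the run names, since the labels give neither. Libraries of 1 series and time whose names held no animal label were taken as 1 mouse. Tissues of 1 mouse are not independent: their deviations from the group means correlated above 0.1 in 59 of 74 pairs (median r 0.253). Fits with the mouse as a block are therefore given where they add or end a call, and p-values measure the spread between libraries.

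Genes were filtered with filterByExpr and tested with edgeR 4.0.16 (R 4.3.3), by its quasi-likelihood test on TMM-scaled counts with library series as a covariate. P-values were adjusted by Benjamini-Hochberg over all genes tested, 22007 in the fit of all tissues, 19234 in brain, 17058 in lung and 16024 in heart, at a threshold of 0.05. Log2 CPM used a prior count of 2. Alternatives included DESeq2 1.42.0, RLE scaling, no filter, blocks for replicate and mouse, all 98 libraries and each library left out; those on the libraries that stood apart and on library series were chosen after seeing the data. The fits were tested on simulated data. Intervals and bounds cover 95% and 3 counts, and counting bounds cover counting error only. The study itself used ComBat and limma-voom, which were not used here.

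The members and gene lists were chosen with earlier results of these data known. All 10 members are named. From the lists of other acute-phase genes, inducers, partners and paralogs, the 3 with the largest mean log2 change at 6 and 24 hr among those called in 1 direction in all 3 tissues at 6 or 24 hr are named, and any called in opposite directions in 2 tissues at 6 hr. For likeness, the 3 highest Pearson correlations with Lcn2, Serpina3n and Ptx3 among genes whose log2 CPM averaged 3 or more are named, and Ptx3 was below that level. Of each marker list the 2 most abundant genes may be named. Other names were chosen after their values were seen.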

Additional observations from a re-analysis of the deposited data

Results flagged for a closer look

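Single libraries lay far from the others of their group in 24 of 163 groups examined, by Dixon's test at 95%, where chance gives about 1 in 20. Heart 6 hr replicate 5 was low for 8 members, at 46.7 CPM for Lcn2, 0.957 CPM for Saa3, 0 CPM for Saa1, 0.0638 CPM for Saa2, 0.255 CPM for Hp, 5.61 CPM for Steap4, 5.93 CPM for Serpina3g and 0.829 CPM for Ptx3. Brain 6 hr replicate 6, taken as the same mouse, was low for 5 members. It was at 289 CPM for Lcn2, 1.08 CPM for Saa3, 0.154 CPM for Saa1, 0.0771 CPM for Saa2 and 4.24 CPM for Steap4. Lung 6 hr replicate 4, the third library of that mouse, was at 0 CPM for Lrg1 and for Serpina3g. Heart 72 hr replicate 1 was low for Saa3 (0.658 CPM), Hp (0.461 CPM) and Serpina3g (4.97 CPM).

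The remaining libraries were far from their group for 1 member each. Steap4 was low at 150.2 CPM in brain 24 hr replicate 2 and at 1.28 CPM in lung 0 hr replicate 3, and high at 7.12 CPM in heart 168 hr replicate 4. Saa1 was low at 5.85 CPM in lung 72 hr replicate 3, Lrg1 was high at 291 CPM in lung 72 hr replicate 5, and Serpina3g was low at 3.63 CPM in brain 168 hr replicate 5.

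The response differed between tissues, by the test of the difference itself, in 8 cases. For Ptx3 at 6 hr the log2 difference was 5.13 in brain against lung and -4.39 in lung against heart. For Serpina3g in lung against heart it was -3.28 at 6 hr, -4.48 at 24 hr and -3.37 at 48 hr. For brain against lung it was 5.42 for Steap4 at 24 hr, and 4.00 for Lcn2 and 2.67 for Lrg1 at 48 hr.

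Lcn2 was also detected in libraries that were left out for their low share of reads on genes. It was at 651 CPM in brain 24 hr replicate 3, 396.5 CPM in heart 24 hr replicate 3 and 53.4 CPM in lung 48 hr replicate 5, where the left-out 0 hr libraries of each tissue were at 0. The brain and heart values lie above the 0 hr libraries that were analysed, and the lung value lies within their range of 7.86 to 73.9 CPM.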

How the results depend on the processing

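No called difference of a member changed direction under any alternative. Counts of calls over all pairs of tissues or all tissues moved more. The number of all genes called moved as well, so these counts say little by themselves. For the response at 6 hr in brain against heart it was 140 of 22007 with all kept libraries. Without the 3 libraries of series 1 at 6 hr it was 1408 of 22125. At 0 hr 13 calls became 20 without the filter. For the tissue difference of the response at 6 hr, 3 became 5 with DESeq2, 12 without the filter, 6 with the mouse as a block, 6 without the 3 libraries of series 1 at 6 hr and 7 without heart 72 hr replicate 1 as well. At 24 hr 2 became 6, 17, 6, 7 and 9 under the same 5 alternatives, 1 without the series covariate and 0 without series 4. At 48 hr 3 became 9, 17, 8, 9 and 10, then 5 with all 98 libraries, 0 within series 2 and 0 without series 4. For 24 against 6 hr, 0 became 2 with DESeq2, 4 without the filter, 1 without the series covariate, 1 with the replicate block, and 2 and 3 without the libraries that stood apart. For 48 against 6 hr, 4 became 10, 10, 11 and 12 under DESeq2, no filter and those 2 exclusions, 13 within series 2 and 2 without series 4. Of the other acute-phase genes, 21 in brain at 24 hr became 13 with the replicate block and 13 within series 2; 13 in lung at 6 hr became 8 with the replicate block, 7 with all 98 libraries, 0 within series 2 and 5 without series 4; and 2 in lung at 24 hr became 5 with DESeq2, 5 without the filter, 4 without the series covariate, 0 with the replicate block and 0 without series 4. Members above all 0 hr libraries at 6 hr went from 3 to 10 in brain, 3 to 9 in lung and 4 to 10 in heart without the series 1 libraries. With each library left out in turn, the counts ran from 10 to 13 at 0 hr, 2 to 6, 0 to 3 and 0 to 7 for the response at 6, 24 and 48 hr, 0 to 2 for 24 against 6 hr and 3 to 7 for 48 against 6 hr, and for the other acute-phase genes from 16 to 20, 3 to 14 and 15 to 17 at 6 hr and 14 to 22, 0 to 3 and 13 to 17 at 24 hr in brain, lung and heart. The largest moves came without heart 6 hr replicate 5 or brain 6 hr replicate 6, lung 24 hr replicates 1 or 3, and lung 0 hr replicates 2 or 3. The cause was not tested. Replicate numbers did not pair the samples between times: deviations of same-numbered samples correlated above 0.1 in 59 of 151 pairs, against 53 of 73 pairs between tissues. Depth limits lung at 6 hr most, where replicate 4 has 284457 counts.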
